A study of Mus musculus with 26 samples.

Results

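Microglia sorted from the medial prefrontal cortex (mPFC) of TLR-DKO mice after repeated social defeat stress (R-SDS) were compared with microglia of wild-type mice taken after the same stress. The means compared are those of 6 of the 26 arrays of the study, chosen by their titles: the 3 TLR-DKO and the 3 wild-type R-SDS arrays of the mPFC. On them, 20570 of 24738 genes tested were well above background on 3 arrays of at least 1 side. R-SDS is a procedure in which a mouse is attacked repeatedly by a larger, aggressive one. The wild-type mice were CX3CR1EGFP/+ on a C57BL/6 background, and the other group was TLR-DKO; CX3CR1EGFP/+ on the same background. All mice of both groups thus carried EGFP at 1 copy of Cx3cr1, the fractalkine receptor gene, and the sort took every EGFP-positive cell. The labels do not spell out TLR-DKO, which in the published study is the combined loss of Tlr2 and Tlr4. By the labels, wild-type mice were susceptible to the stress and TLR-DKO mice resilient, so genotype and labelled behavioural outcome cannot be told apart here. Each sample pooled microglia of 3 to 6 mice from a 1.5 mm punch, taken 1.5 hours after the last session, and held 500 pg of RNA, which was amplified before labelling. Naive groups were moved between cages only. The same difference between genotypes was also read in naive mPFC (3 wild-type and 4 TLR-DKO arrays), naive nucleus accumbens (NAc; 3 and 3) and stressed NAc (3 and 4), which share no array with the 6. All these differences come from 1 fit and share its estimate of the spread.

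Toll-like receptors recognise molecules of microbes and of damaged cells. The receptor encoded by Tlr2 works as a pair with that of Tlr1 or Tlr6, and the receptor encoded by Tlr4 works with the co-receptors Cd14 and Ly96. Most of them signal through the adaptor Myd88 and the Irak kinases to NF-kappaB, which drives cytokine and chemokine genes, while Ticam1 and Ticam2 lead from Tlr4 to interferon genes. Microglia, the resident macrophages of the brain, are the main cells that express these receptors there.

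Levels are log2 of the spot's processed signal minus the 75th percentile of its array, so a level of 0 is the signal that 75% of probes do not exceed. A difference is the TLR-DKO mean minus the wild-type mean, given with its standard error (SE) from limma, and 1 unit is a 2-fold change. Adjusted p is over all 24738 genes, with a threshold of 0.05. Levels of different genes come from different probes and are not compared. SEs and p-values take their spread from all 26 arrays, fitted as 8 groups, and not from the 6 arrays alone. The number of arrays limits every value, and p-values measure the spread between pooled samples within these groups.

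One array stood apart. Wild-type R-SDS replicate 3 had the lowest brightness of the 6, with a 75th percentile of 80.7 units against 136.9 to 249.0 on the other 5. Of its spots, 50.3% were well above background, against 52.6% to 63.0%. Its correlation with the other 5 arrays across genes was 0.795 to 0.802, against 0.861 to 0.922 among those 5. Its levels were also spread more widely, with a median of 5.78 in the brightest 10% of genes against 4.72 to 4.95. A difference or list median that moved by over 1.5 times, or turned its sign, without this array is therefore given with and without it. The median difference over all genes was -0.24, and -0.09 without this array. It was -0.03 on the slide with replicates 1 and 2 of both groups and -0.68 on the slide with replicate 3 of both. Quantile normalization brought it to -0.07. Of all genes, 65.8% had a difference below 0, so a difference near -0.24 is what a typical gene shows.

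The promoter of the deleted gene Tlr2, that of Msantd3, another gene past the threshold, and that of Cxcl10, a chemokine gene downstream of Toll-like receptors, are shown here as the letters that lie upstream of the genes the results turn on. They are the 250 bases before each start in RefSeq (GRCm38.p6), 5′ to 3′ on the gene's strand. Capitals mark matches on either strand to 3 motifs: for NF-kappaB, GGG and TTCC with any 3 bases between; for AP-1, TGANTCA; and for the core of an interferon-stimulated response element, GAAA repeated after any 2 bases.
Tlr2, chr3:83841609-83841858, minus strand: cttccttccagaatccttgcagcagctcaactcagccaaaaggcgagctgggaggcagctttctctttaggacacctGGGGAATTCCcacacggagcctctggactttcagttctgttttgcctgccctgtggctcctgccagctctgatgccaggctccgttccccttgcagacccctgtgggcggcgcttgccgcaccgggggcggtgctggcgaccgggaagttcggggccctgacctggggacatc
Msantd3, chr4:48539696-48539945, plus strand, the most upstream of 3 starts: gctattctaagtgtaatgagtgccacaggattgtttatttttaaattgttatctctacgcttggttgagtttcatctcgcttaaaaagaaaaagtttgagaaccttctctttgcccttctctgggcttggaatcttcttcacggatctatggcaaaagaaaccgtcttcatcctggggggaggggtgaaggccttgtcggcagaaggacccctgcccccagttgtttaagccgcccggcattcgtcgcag
Cxcl10, chr5:92348890-92349139, minus strand: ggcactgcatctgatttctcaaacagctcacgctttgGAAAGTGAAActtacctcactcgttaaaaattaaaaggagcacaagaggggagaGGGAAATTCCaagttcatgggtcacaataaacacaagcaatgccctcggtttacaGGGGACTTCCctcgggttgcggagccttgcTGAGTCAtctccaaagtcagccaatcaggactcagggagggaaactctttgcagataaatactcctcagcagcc

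The Tlr2 window holds 1 match, GGGGAATTCC, whose first base lies 173 bases before the start. The Cxcl10 window holds GGGAAATTCC at 159 and GGGGACTTCC at 104 bases before the start, GAAAGTGAAA at 213 and TGAGTCA at 74. The Msantd3 window holds none of the 3 motifs. Among 32851 promoter windows of this length, 4.65% hold the NF-kappaB motif, 6.75% the AP-1 motif and 2.98% the response element core. A match describes the letters only.

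Between the genotypes after stress, 3 of 24738 genes (0.0121%) passed the threshold in the fit of all 26 arrays, and all 3 fell in TLR-DKO microglia. With only the 6 arrays fitted, 0 genes passed. They were Tlr2, the probe named NAP060823-1 and Msantd3. No gene rose past the threshold (0 genes by limma), although 1444 genes (5.84%) had an unadjusted p under 0.05, 464 of them (1.88%) higher and 980 (3.96%) lower. Arrays of the groups did not overlap for 1531 genes lower (6.19%) and 752 genes higher (3.04%) in TLR-DKO.

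Tlr2, one of the targeted genes, read 2.68, 1.90 and 1.21 on the wild-type arrays and -4.23, -3.82 and -3.63 on the TLR-DKO arrays. It was well above background on every wild-type array and on none of the TLR-DKO arrays. The difference was -5.82 ± 0.41 (adjusted p = 9.29e-08), and the signal was at least 45.4-fold lower once the background of each array is allowed for. Such a bound compares the wild-type mean with the lowest signal counted as above background and carries no sampling error. The same gene differed by -5.67, -5.83 and -5.61 in naive mPFC, naive NAc and stressed NAc. This matches the genotype label on all 6 arrays.

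Tlr4, the other gene of the pair in the published study, read 2.49, 1.92 and 1.60 in wild-type and 2.61, 1.43 and 2.46 in TLR-DKO microglia. The groups overlapped, and the difference was 0.16 ± 0.54 (95% interval -0.97 to 1.30; -0.04 without wild-type replicate 3). Where its probe lies relative to the deleted part is not given in the sources used here, so this value does not check the label. Cx3cr1, where the reporter sits in both groups, read 8.29, 8.10 and 9.70 against 8.27, 8.23 and 8.25. The one high value is that of wild-type replicate 3, and the difference of -0.44 ± 0.34 became 0.06 without it.

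NAP060823-1 is a name of the array design for which no gene name was matched. It read 1.67, 1.75 and 2.88 in wild-type and -1.61, -1.57 and -1.73 in TLR-DKO microglia, and was well above background on all 6 arrays. It fell by 3.74 ± 0.41 (adjusted p = 1.37e-04). In the other pairs of groups it fell as well, with differences of -3.28, -3.36 and -3.40 in naive mPFC, naive NAc and stressed NAc (adjusted p = 3.90e-04, 7.74e-04 and 2.14e-04). These tests share the estimate of the spread of the same fit. The probe thus followed genotype in both regions, with and without stress.

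Msantd3, which encodes a protein with a Myb/SANT-like DNA-binding domain, behaved otherwise. It read 0.08, 0.34 and 3.21 in stressed wild-type mPFC microglia and -5.57, -5.41 and -5.99 in stressed TLR-DKO mPFC microglia. The difference was -6.87 ± 0.93 (adjusted p = 2.85e-03), at least 28.0-fold lower in TLR-DKO, where no array was well above background. Without wild-type replicate 3, the highest array, it was -5.87 (adjusted p = 0.0415), and without it and TLR-DKO naive mPFC replicate 1, another outlying array that enters the shared estimate of the spread, the adjusted p was 0.0534. Of the other 20 arrays only 1, TLR-DKO naive NAc replicate 2 at -0.67, was well above background, and the 20 had a median of -5.90. Only the stressed wild-type mPFC group was thus well above background on all its arrays, and the stressed TLR-DKO arrays lay near the median of those 20. The gene entered the test through that 1 group alone, so its absence elsewhere is no separate support. The differences in the other pairs of groups were 0.16, 1.40 and -0.08. The interaction with stress was -7.03 ± 1.28 (adjusted p = 0.495) and that with region -6.79 ± 1.28 (adjusted p = 0.764), neither past the threshold. A second Msantd3 probe differed by -2.03 and was well above background on only 1 of the 6 arrays.

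**Figure D1:**
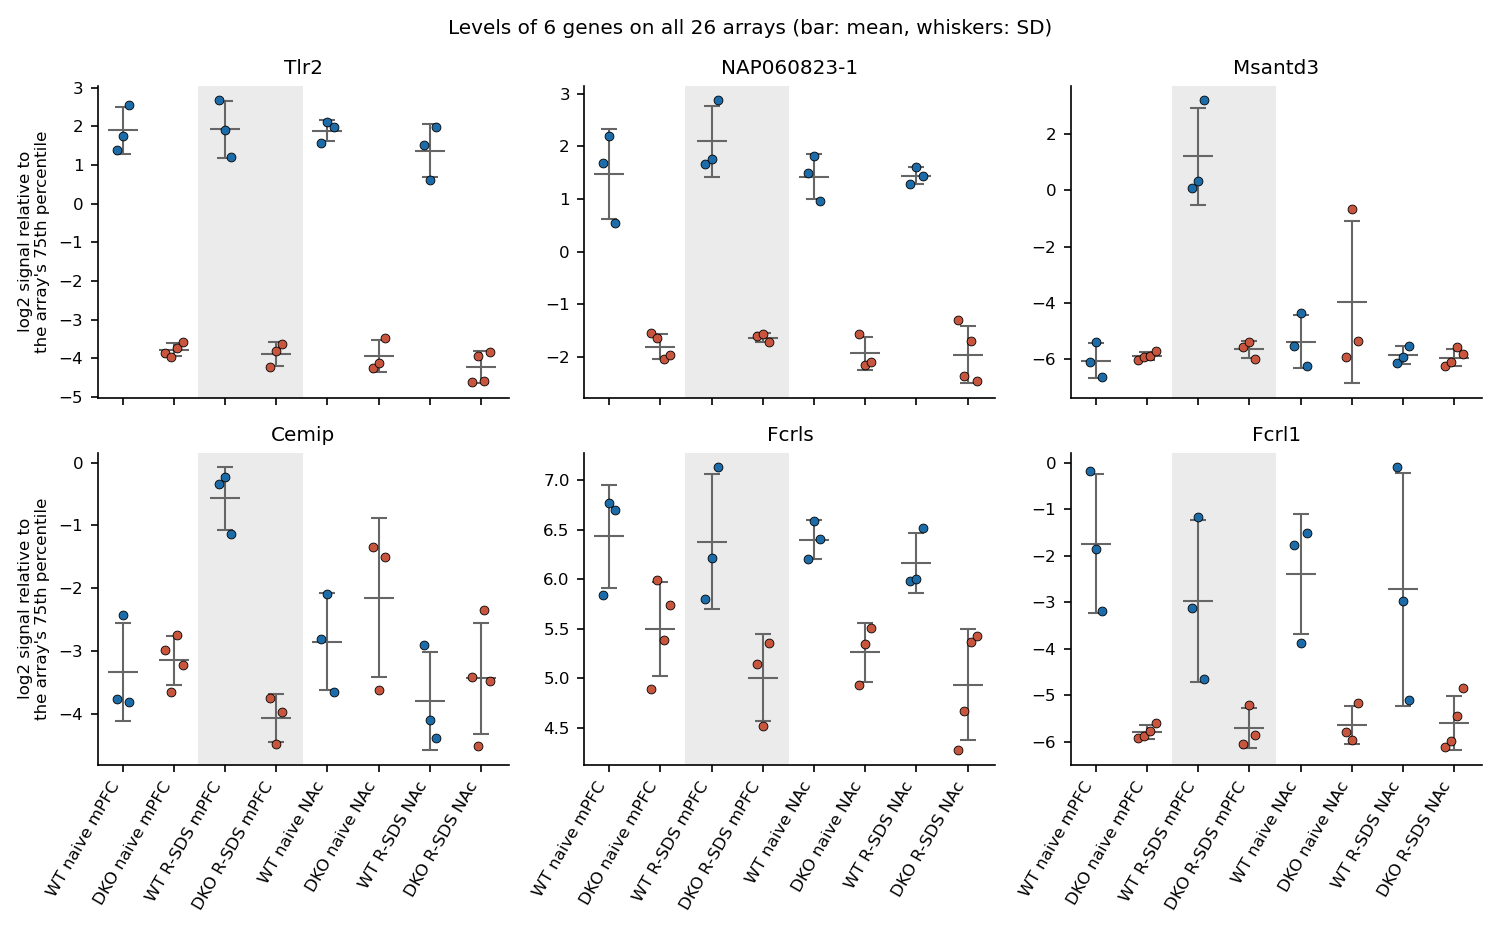
Levels of 6 genes on all 26 arrays (y axis: log2 signal minus that of the array's 75th percentile), by group; points are arrays, wild type in blue and TLR-DKO in red, bars are group means and whiskers the SD. Grey marks the stressed mPFC groups. Tlr2 and NAP060823-1 separate by genotype in all 4 pairs of groups. For Msantd3 and Cemip the stressed wild-type mPFC arrays are the highest of the 26. The margin is narrow for Cemip, at -1.14 for the lowest of them against -1.34 for the highest array of the other groups.

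Cemip, which encodes a protein for the breakdown of hyaluronan, came next in rank and missed the threshold (-3.49 ± 0.61; adjusted p = 0.0748). It read -0.35, -0.23 and -1.14 in wild-type and -3.74, -4.48 and -3.96 in TLR-DKO microglia. All 20 other arrays lay below the lowest of the 3 stressed wild-type arrays, between -4.50 and -1.34. The gap was narrow, and 17 of those 20 arrays were well above background. Its differences in the other pairs of groups were 0.18, 0.70 and 0.36. The gene was picked by its p on these same arrays, and no gene passed either interaction in this fit. A second Cemip probe lay below background on all 6 arrays.

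The other named genes with the smallest p in each direction did not pass the threshold (adjusted p from 0.219 to 0.671), and none of their counts is read as a result. Lower in TLR-DKO were Sacm1l, a phosphoinositide phosphatase (-2.88 ± 0.57), the homeobox gene Hoxd10 (-2.65 ± 0.58), Tmem179 (-1.87 ± 0.45) and Ybx3, a Y-box nucleic acid-binding protein (-3.40 ± 0.87). Fancb, of the Fanconi anaemia core complex, was not above background on any TLR-DKO array and differed by -3.29 ± 0.86 (at least 4.54-fold lower). Oas1f (-1.76 ± 0.47), Bhlha9 (-1.60 ± 0.43) and Ccnt2, the cyclin T2 of a transcription elongation kinase (-3.70 ± 1.01), made up the rest with Apod. Apod, which encodes the lipid carrier apolipoprotein D, read 2.23, 2.87 and 3.07 in wild-type and 0.40, 0.50 and -0.53 in TLR-DKO microglia (-2.60 ± 0.70). Of the other 20 arrays, 1 reached the lowest of these stressed wild-type values. Ccnt2 differed the same way in the other pairs of groups (-3.25, -1.40 and -1.21).

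Ctps, the CTP synthase gene, had the smallest p among genes higher in TLR-DKO (5.67 ± 1.10; adjusted p = 0.219). It read -5.42, -5.73 and -4.47 in wild-type microglia, at no array well above background, and -0.05, 0.33 and 1.13 in TLR-DKO microglia (at least 12.5-fold higher). All 20 other arrays lay above these wild-type arrays, from -4.20 to 1.36, and 18 of them were well above background. The gene was picked by its p on these same arrays, and no gene passed either interaction in this fit. Genes with no wild-type array well above background also included Fut8, the core fucosyltransferase (3.91 ± 0.82, at least 3.77-fold higher), and Mrpl35, a mitochondrial ribosomal protein (3.98 ± 1.02, at least 3.99-fold). Zfp120, a zinc finger gene, differed by 5.53 ± 1.46 (at least 14.1-fold) and Jakmip1 by 3.25 ± 0.87 (at least 3.04-fold). A second Zfp120 probe, well above background on all 6 arrays, differed by 0.44, so the probes of this gene disagree.

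Mki67, a marker of dividing cells, read -3.35, -2.86 and -4.69 in wild-type and -0.36, -1.85 and 0.96 in TLR-DKO microglia (3.21 ± 0.76; adjusted p = 0.492). Its second probe differed by 0.04, so the probes disagree. Kansl1, of a histone acetyltransferase complex (3.09 ± 0.66), Ext2, a heparan sulphate polymerase (4.12 ± 0.96), Zmym3 (3.63 ± 0.92), Kifap3, a kinesin subunit (3.46 ± 0.93), and Foxc1, a forkhead factor (1.61 ± 0.45), were alike in 1 respect. For these and for Mki67, wild-type replicate 3 was the lowest of the 3 wild-type arrays. Without it, the differences were 2.28 for Kansl1, 2.93 for Ext2, 2.69 for Mki67, 2.73 for Zmym3, 1.82 for Kifap3 and 1.03 for Foxc1. Second probes differed by 1.28 for Kansl1 and by -0.64 for Zmym3. The part of this array's low brightness in these differences was not tested. Olfr1008, an olfactory receptor gene, differed by 1.50 ± 0.39, and by 1.49 without that array.

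**Figure D2:**
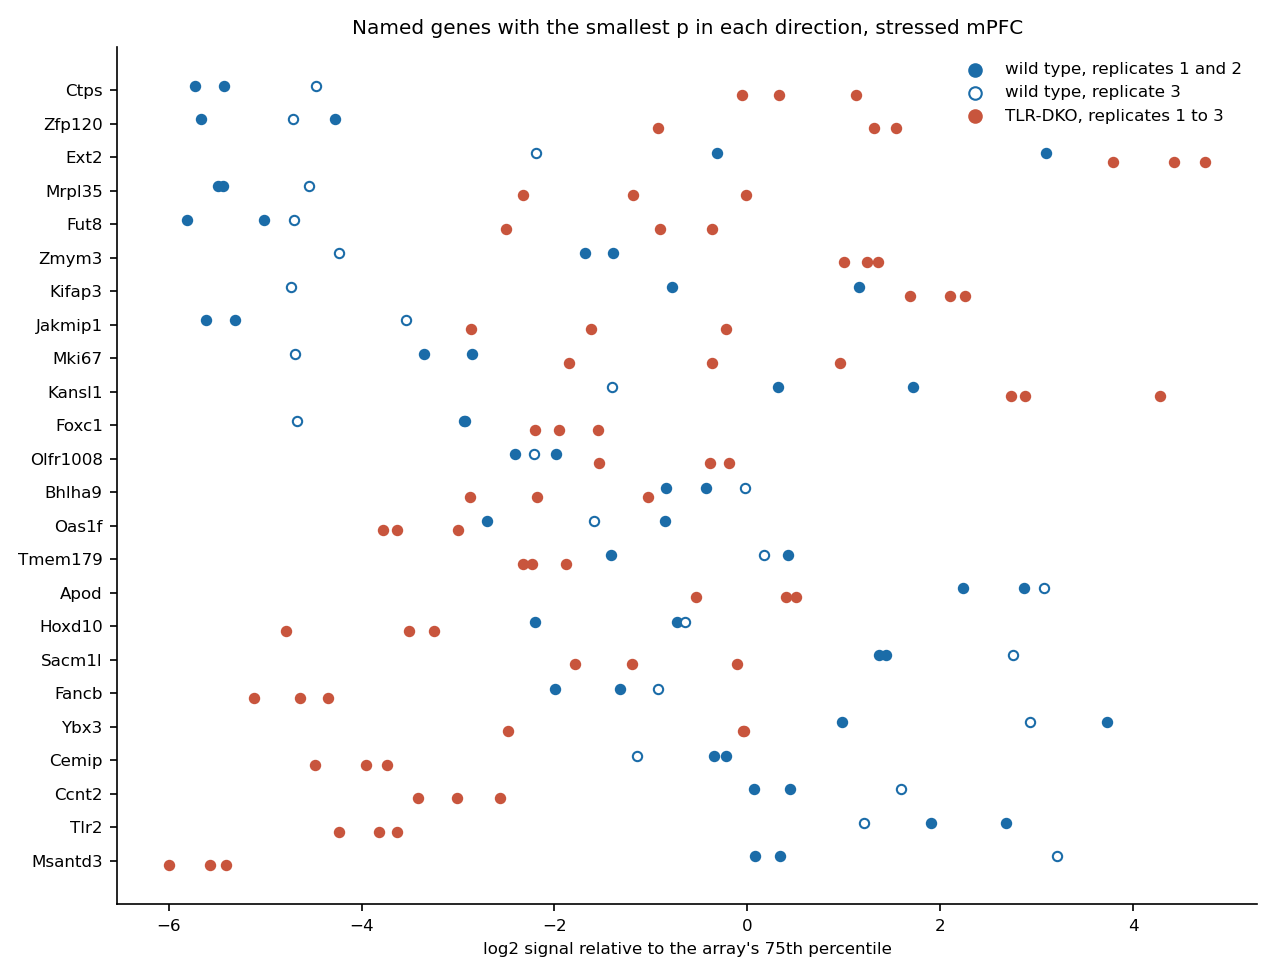
Levels (x axis: log2 signal minus that of the array's 75th percentile) of the 12 named genes with the smallest p in each direction on the 6 stressed mPFC arrays; wild type in blue, with replicate 3 as an open circle, and TLR-DKO in red. The groups do not overlap for any of the 24, as the choice by p favours; Tlr2 and Msantd3 alone passed the threshold.

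Among the Toll-like receptors, Tlr2 was the only one of 11 measured that passed the threshold (background 0.0121%). Of the 11, 5 had a difference above 0 and 6 below, with a median of -0.24, equal to that of all genes (-0.04 without wild-type replicate 3, and 0.03 after quantile normalization, when the median of all genes is -0.07). The partners of Tlr2 differed by 0.32 ± 0.73 (Tlr1; 0.53 without wild-type replicate 3) and 0.43 ± 1.02 (Tlr6; -0.12 without it). The receptors of nucleic acids in endosomes differed by -0.24 ± 0.40 (Tlr7), 0.37 ± 0.34 (Tlr9), -0.49 ± 0.40 (Tlr13) and -0.49 ± 0.85 (Tlr3), all with overlapping arrays. Without wild-type replicate 3 these differences were 0.09 (Tlr7), 0.21 (Tlr9), -0.04 (Tlr13) and -1.35 (Tlr3). Tlr12, a receptor of a protozoan protein, differed by -0.72 ± 0.58, and by 0.17 without wild-type replicate 3, whose level of 6.32 compares with 3.39 to 4.06 on the other 5. Tlr5, the flagellin receptor, differed by 0.04 ± 0.64 (0.15 without that array).

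Tlr8, another endosomal receptor of RNA, was the exception among them in its arrays. It read -2.32, -1.64 and -1.73 in wild-type and -4.78, -4.21 and -4.45 in TLR-DKO microglia. The groups did not overlap, and no TLR-DKO array was well above background, so the signal was at least 3.24-fold lower. The difference of -2.58 ± 0.87 did not pass the threshold (adjusted p = 0.786). The differences in naive mPFC, naive NAc and stressed NAc were 0.52, -1.36 and 0.03, and the interaction with stress was -3.10 ± 1.20 (adjusted p = 0.810).

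The co-receptors and folding factors of these receptors gave 8 measured genes, none past the threshold, 2 with a difference above 0 and 6 below (median -0.24; 0.13 after quantile normalization). Cd14, which hands lipopolysaccharide to the receptor, read 2.61, 3.43 and 4.35 against 3.27, 3.09 and 3.73, a difference of -0.10 ± 0.43 (95% interval -0.99 to 0.78; 0.34 without wild-type replicate 3). Ly96, the partner of the Tlr4 receptor that binds lipopolysaccharide, differed by 0.01 ± 0.77 (-0.25 without it). Cd180 (0.21 ± 0.57) and its partner Ly86 (-0.53 ± 0.37) overlapped between the groups, as did Unc93b1, which carries receptors to endosomes (-0.33 ± 0.32). Their differences were -0.76, -0.35 and -0.10 without wild-type replicate 3. The folding factors Hsp90b1 (-0.18 ± 0.62) and Cnpy3 (-0.30 ± 0.54) were each highest on wild-type replicate 3 and differed by 0.62 and 0.53 without it. Cd36, a scavenger receptor that assists the Tlr2 receptor, differed by -1.93 ± 1.03.

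Of the adaptors and kinases, 21 were measured and none passed the threshold. Their median was 0.19, with 12 above and 9 below 0 (0.31 after quantile normalization and -0.10 without wild-type replicate 3). Myd88 read 1.49, -0.38 and -3.69 in wild-type and -2.95, -0.31 and 0.14 in TLR-DKO microglia. Its 3 wild-type arrays spanned more than the groups differed (-0.18 ± 1.04; 95% interval -2.34 to 1.98; -1.59 without wild-type replicate 3). Irak1 read 3.66, 3.60 and -0.79 against 4.00, 2.64 and 4.49, so its difference of 1.55 ± 0.94 came to 0.08 without wild-type replicate 3. Irak2, the kinase of sustained signalling, was high on all 6 arrays at 8.64 to 9.77 and differed by -0.40 ± 0.29 (-0.10 without that array). The sorting adaptors Tirap (-1.16 ± 1.08) and Ticam2 (-1.13 ± 0.90) had arrays that did not overlap, as did the kinase Tbk1 (-0.94 ± 0.87), at 3 of 21 lower against 6.19% of all genes. Their SEs take in the spread of all 8 groups. Ticam1, the adaptor with which Ticam2 works, differed by 1.12 ± 0.81, and by 0.13 without wild-type replicate 3. The ubiquitin ligase Traf6 differed by 0.98 ± 1.17 (-0.22 without it), and the scaffold Ikbkg of the NF-kappaB-releasing kinase by 1.75 ± 1.02 (0.97 without it).

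**Figure D3:**
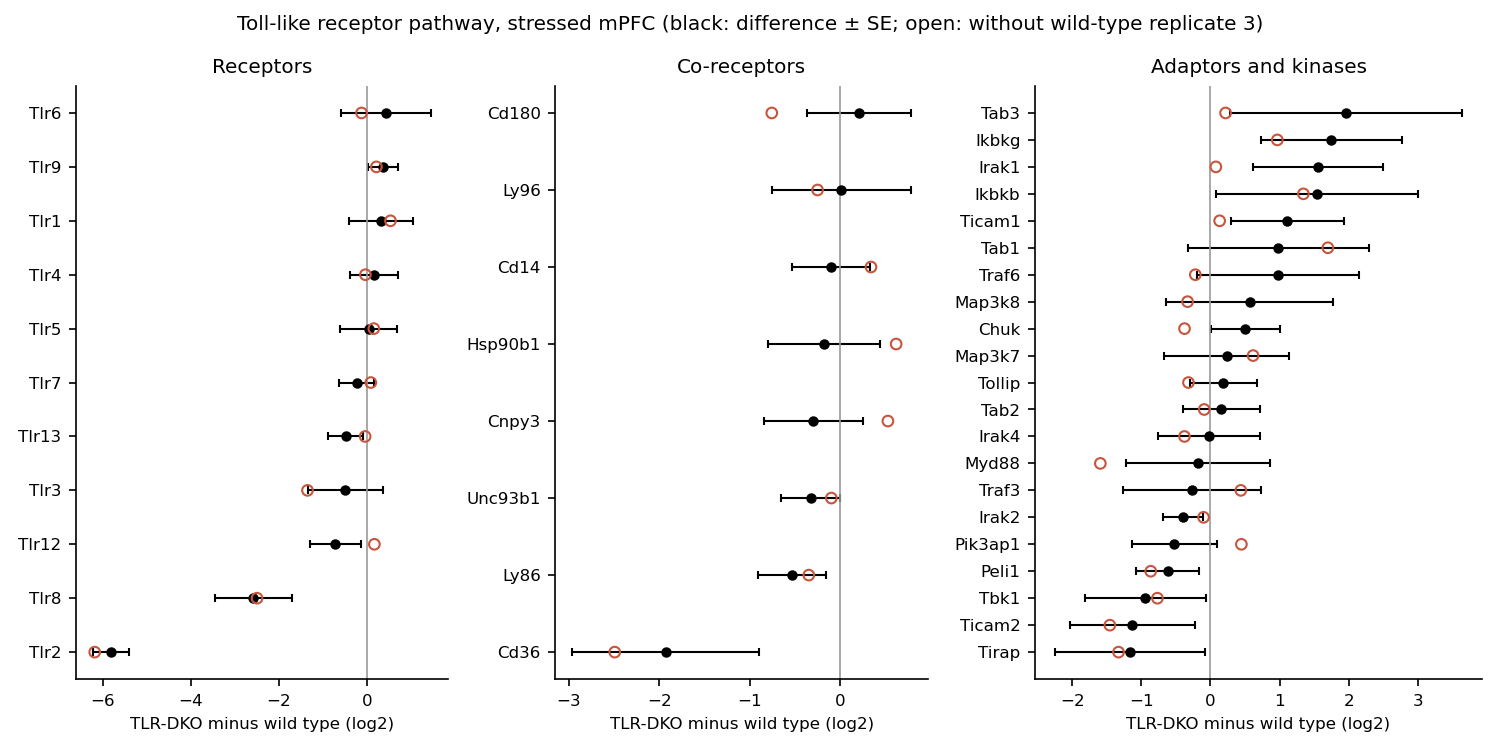
Difference TLR-DKO minus wild type (x axis, log2) in stressed mPFC for each measured Toll-like receptor, co-receptor or folding factor, and adaptor or kinase. Black points are differences with bars of 1 SE and open circles leave out wild-type replicate 3; Tlr2 at -5.82 passed the threshold, Tlr8 at -2.58 did not, and several signs turn when that array is left out.

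The NF-kappaB subunits and feedback genes gave 16 measured genes, 0 past the threshold, with 4 above and 12 below 0. Their median was -0.25, at that of all genes, and 0.14 without wild-type replicate 3. Rel, a subunit induced in activated cells, differed by -0.97 ± 0.67 (-0.56 without wild-type replicate 3). The inhibitor Nfkbia, which NF-kappaB itself induces, differed by 0.16 ± 0.75, and the deubiquitinase Tnfaip3 by -0.20 ± 0.59 (0.35 and -0.12 without it). Relb and Rela were each highest on wild-type replicate 3, at 4.98 and 6.74, and differed by -1.59 and -0.54 with it and by 0.19 and 0.55 without it.

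Of 11 cytokine genes, 0 passed the threshold, 2 had a difference above 0 and 9 below (median -0.49; -0.16 without wild-type replicate 3, -0.34 after quantile normalization). Il1a read 3.01, 3.25 and 4.84 in wild-type and 1.52, 2.44 and 4.11 in TLR-DKO microglia (-1.01 ± 0.90; -0.44 without wild-type replicate 3). Il1b read 2.92, 3.15 and 3.73 against 1.00, 2.77 and 3.62 (-0.80 ± 1.16). Tnf read 2.85, 3.30 and 2.62 against 1.24, 2.20 and 3.88 (-0.49 ± 1.10). In each of these inflammatory cytokine genes TLR-DKO replicate 1 was the lowest array and the groups overlapped. Without that TLR-DKO array the differences were -0.42 (Il1a), -0.07 (Il1b) and 0.11 (Tnf).

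The 12 chemokine genes had a median of 0.07, and 0.29 after quantile normalization, with 5 of the 12 below 0 in each case. Without wild-type replicate 3 the median was -0.62 and 11 of them lay below 0, as did 57.2% of all genes. None passed the threshold. Cxcl10, whose promoter is printed above, read 1.18, 1.31 and 4.14 in wild-type and -0.92, 0.51 and 1.41 in TLR-DKO microglia. Its difference of -1.88 ± 0.82 (unadjusted p = 0.0337, adjusted p = 0.786) was -0.91 without wild-type replicate 3, the highest array. Ccl3 read 5.56, 5.13 and 5.72 against 3.61, 5.11 and 4.84, so the groups did not overlap (-0.95 ± 0.47; -0.83 without that array). Ccl4 (-0.84 ± 0.62) and Cxcl9 (-0.84 ± 0.59), which attract leukocytes, overlapped between groups. Ccl2 and Ccl6 were lowest on wild-type replicate 3, at 0.31 and 0.34, and their differences of 0.76 and 0.77 became -0.15 and -0.54 without it.

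Of 22 genes of the type I interferon response, 0 passed the threshold, with 6 above and 16 below 0 (median -0.37; -0.21 without wild-type replicate 3, -0.17 after quantile normalization). Irf7, the factor that amplifies interferon production, had the smallest p among them. It read -1.03, -0.25 and -1.14 in wild-type and -2.73, -2.67 and -2.85 in TLR-DKO microglia, without overlap. The difference was -1.95 ± 0.68 (adjusted p = 0.786; -2.11 without wild-type replicate 3). In naive mPFC, naive NAc and stressed NAc it was -0.41, 0.37 and 0.31. The groups also did not overlap for 3 other members, so 4 of 22 were lower against 6.19% of all genes. Irf3, which acts before Irf7, differed by 1.30 ± 0.86 (0.50 without wild-type replicate 3).

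The immediate early genes, which report recent activation or handling of cells, gave 25 measured genes, 0 past the threshold, 9 above and 16 below 0. Their median was -0.51, -0.48 without wild-type replicate 3 and -0.14 after quantile normalization. In naive mPFC, naive NAc and stressed NAc the medians were 0.59, 0.15 and -0.44. Klf6, a zinc finger factor, read 5.27, 5.27 and 5.97 against 5.04, 4.38 and 4.26 (-0.94 ± 0.43, no overlap). Atf3 read 4.43, 4.16 and 3.62 against 2.81, 3.01 and 3.91, a difference of -0.83 ± 0.54. Ier2 ran the other way (2.71 ± 1.19), from -2.36, -0.81 and -2.34 to -1.34, 3.40 and 0.54. The 14 heat shock chaperones had a median of -0.30, and -0.05 without wild-type replicate 3. Among them Hspa5, the chaperone of the endoplasmic reticulum, differed by -0.76 ± 0.40, and by -0.14 without that array.

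The glucocorticoid receptor and its targets, read because corticosterone rises with stress, gave 20 measured genes with 0 past the threshold, 5 above and 15 below 0 (median -0.40; -0.14 without wild-type replicate 3, -0.05 after quantile normalization). Zbtb16, a glucocorticoid-induced zinc finger factor, read -1.97, 0.60 and -1.57 against -2.97, -3.30 and -2.72 (-2.02 ± 0.77, no overlap). Tsc22d3, which encodes the glucocorticoid-induced leucine zipper protein, read 5.95, 5.70 and 6.30 against 6.22, 5.81 and 4.16 (-0.59 ± 0.46). Its difference thus came from TLR-DKO replicate 3, without which it was 0.03. The receptor gene Nr3c1 differed by 0.94 ± 0.58 (0.41 without wild-type replicate 3).

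Genes of ribosomes and mitochondria were mostly lower in sign. All 74 cytosolic ribosomal protein genes measured had a difference below 0, where 65.8% of all genes did, and 0 passed the threshold. Their median was -0.55, against -0.35 in the brightest 10% of all genes. Without wild-type replicate 3, 67 of the 74 were below 0 with a median of -0.27, and after quantile normalization 58 were, with a median of -0.18. Of all genes, 57.2% were below 0 without that array and 54.8% after quantile normalization. On the slide with replicates 1 and 2, 56 of the 74 were below 0 (52.8% of all genes) with a median of -0.09. The median was -1.53 on the slide with replicate 3. Arrays did not overlap for 7 of the 74, against 6.19% of all genes. Rpsa had the smallest p and read 4.74, 4.58 and 5.79 against 3.89, 4.29 and 3.76 (-1.05 ± 0.43; -0.68 without that array). In naive mPFC, naive NAc and stressed NAc the medians of the list were 0.32, 0.11 and -0.22. The 77 genes of the respiratory chain and ATP synthase had 19 above and 58 below 0 and a median of -0.36 (-0.21 without wild-type replicate 3, -0.13 after quantile normalization). Of these 77, 10 did not overlap between groups and were lower, against 6.19% of all genes. The list median was -0.11 on the slide with replicates 1 and 2 and -0.78 on that with replicate 3. Uqcr11, a subunit of complex III, read 2.81, 3.33 and 3.94 against 2.49, 2.08 and 1.68 (-1.28 ± 0.42; -0.99 without that array). The differences of Atp5pb, Atp5b and Ndufa13 were -1.40, -1.04 and -1.24, and -0.87, -0.60 and -0.51 without it.

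The homeostatic microglia markers, which check the cell type of the label, gave 23 measured genes, and all 23 were well above background on each of the 6 arrays. None passed the threshold, 3 had a difference above 0 and 20 below, and the median of -0.44 became -0.02 without wild-type replicate 3. Summed over the list, the linear signal relative to the 75th percentile ran from 2318 to 5674 in wild-type and from 2278 to 2870 in TLR-DKO microglia. The sum of 5674 was that of wild-type replicate 3, and the other wild-type arrays had 2800 and 2318. Tmem119 (-0.38) and P2ry12 (-0.45), genes typical of microglia, followed the list, and differed by -0.04 and -0.21 without that array. Fcrls, an Fc receptor-like gene specific to microglia, stood apart. It read 5.80, 6.21 and 7.13 in wild-type and 5.14, 4.52 and 5.36 in TLR-DKO microglia, without overlap. The difference of -1.37 ± 0.40 (unadjusted p = 0.00264, adjusted p = 0.671) was -1.0 without wild-type replicate 3. In naive mPFC, naive NAc and stressed NAc it was -0.93, -1.14 and -1.23, none past the threshold (adjusted p = 0.813, 1.00 and 0.997).

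Fcrls lies 20 protein-coding genes from Tlr2 in the RefSeq order, which turns to the chromosome around the deleted gene. Of the 25 protein-coding genes on each side, 26 were measured, with 0 past the threshold, 10 above and 16 below 0 (median -0.23, near that of all genes; -0.04 without wild-type replicate 3). Fcrl1, a relative of Fcrls 22 genes from Tlr2, read -3.13, -1.17 and -4.64 in wild-type and -6.04, -5.21 and -5.86 in TLR-DKO microglia. Its difference was -2.72 ± 0.97 (adjusted p = 0.786), and -4.05, -3.24 and -2.88 in the other pairs of groups. No TLR-DKO array of the 4 groups was well above background for it, and the signal was at least 1.53-fold lower here. Etv3, 24 genes from Tlr2, was higher in TLR-DKO in all 4 pairs of groups, by 1.35 here and by 1.11, 1.16 and 0.80 in the others, with no adjusted p under the threshold. Its value here was 0.32 without wild-type replicate 3. Agreement in sign was not particular to the genes named here, as Ctso, Kirrel and Sh3d19 also lay below 0 in all 4 pairs. Plrg1, a splicing factor 4 genes away on the other side, differed by -1.43 ± 0.63 here and by -0.58, 0.15 and 0.50 elsewhere. The 24 measured neighbours of Tlr4 had 7 above and 17 below 0 (median -0.41; -0.14 without wild-type replicate 3).

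**Figure D4:**
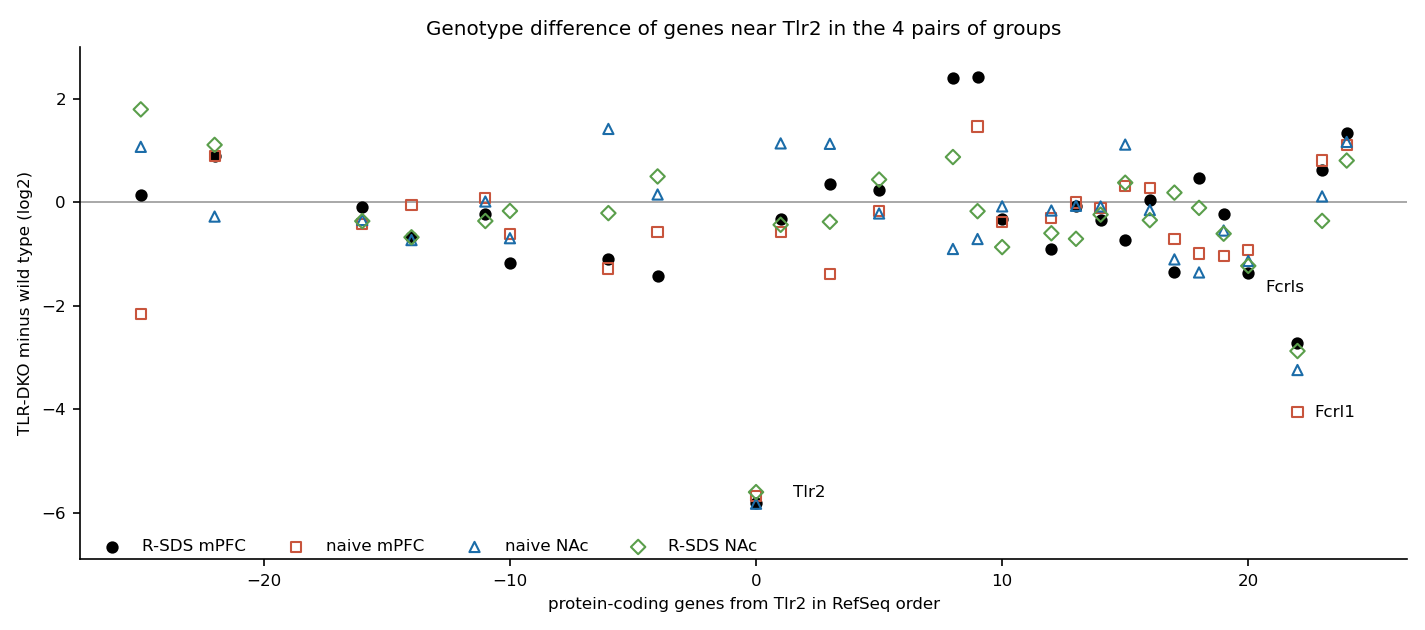
Difference TLR-DKO minus wild type (y axis, log2) of the measured protein-coding genes within 25 genes of Tlr2, by their order in RefSeq (x axis: number of genes from Tlr2), in the 4 pairs of groups. Apart from Tlr2, the genes that lie below 0 in all 4 pairs by the widest margin are Fcrl1 (from -4.05 to -2.72) and Fcrls (from -1.37 to -0.93).

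Of genes linked to microglial states, the 20 disease-associated microglia genes had 3 above and 17 below 0 (median -0.45; -0.23 without wild-type replicate 3, -0.09 after quantile normalization) and 0 past the threshold. Cd63, a lysosomal tetraspanin, read 4.29, 4.16 and 5.36 against 4.01, 4.09 and 3.71 (-0.67 ± 0.31; -0.29 without that array). Trem2, a receptor of this state, differed by -0.54 ± 0.32 (-0.20 without it). The 19 complement and phagocytic receptor genes had a median of -0.33 (-0.03 without wild-type replicate 3). The 19 antigen presentation genes had a median of -0.26 (0.05 without it), with members on both sides of 0. Of these, Cd80, a costimulatory ligand, read 0.61, 1.52 and -0.44 against 2.08, 1.62 and 2.42 (1.48 ± 0.60), and H2-Eb1, a class II chain, 0.21, -1.08 and 2.26 against -1.52, -1.60 and -3.04 (-2.52 ± 1.08). Neither passed the threshold, and without wild-type replicate 3 they differed by 0.98 and -1.62.

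Markers of other cells of the tissue were mostly lower in sign, as were 65.8% of all genes. In pooled cells, fewer cells of a type and less RNA per cell cannot be told apart. The 12 markers of perivascular macrophages, which also express Cx3cr1, had 2 above and 10 below 0 (median -0.88; -2.28 without wild-type replicate 3; -0.46 without TLR-DKO replicate 3; -0.81 after quantile normalization). Their summed signal was 24.4 to 66.3 in wild-type and 15.9 to 18.7 in TLR-DKO microglia, with 6 to 12 and 8 to 12 of them well above background. None of the 12 was below background on all 6 arrays. Cd163 had the highest difference of the 12, at 1.13. Folr2, Lyve1, Ms4a7 and F13a1 differed by -2.27, -2.67, -2.05 and -2.80, all with overlapping arrays and none past the threshold. The first 3 of these differed by -3.13, -4.02 and -3.48 without wild-type replicate 3. The 6 neuronal markers were all below 0 (median -1.32; -1.27 without wild-type replicate 3; -0.61 with normexp background correction and the 75th percentile), with a summed signal of 46.4 to 113.7 against 30.8 to 74.4. The sum of 113.7 was that of wild-type replicate 3, and the other wild-type arrays had 68.2 and 46.4. Rbfox3 and Snap25, neuronal genes, differed by -1.14 and -0.71 (-0.32 and -0.41 without that array). The largest differences, of Nefl (-3.54 ± 2.43) and Map2 (-2.70 ± 1.65), had wide SEs. All 6 neuronal markers were well above background on each wild-type array, but 3 to 6 of them on the TLR-DKO arrays. The 9 astrocyte markers had 2 above and 7 below 0 (median -0.37), with a summed signal of 19.0 to 74.7 against 18.1 to 31.3. After quantile normalization 5 of the 9 were below 0, as were 54.8% of all genes. The sum of 74.7 was that of wild-type replicate 3, and the other wild-type arrays had 19.0 and 27.5. Aqp4, an astrocyte water channel, read 1.08, 0.49 and 1.72 against 0.08, 0.29 and 0.20 (-0.91 ± 0.36; -0.60 without that array). The part of such cells in the differences above was not tested.

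**Figure D5:**
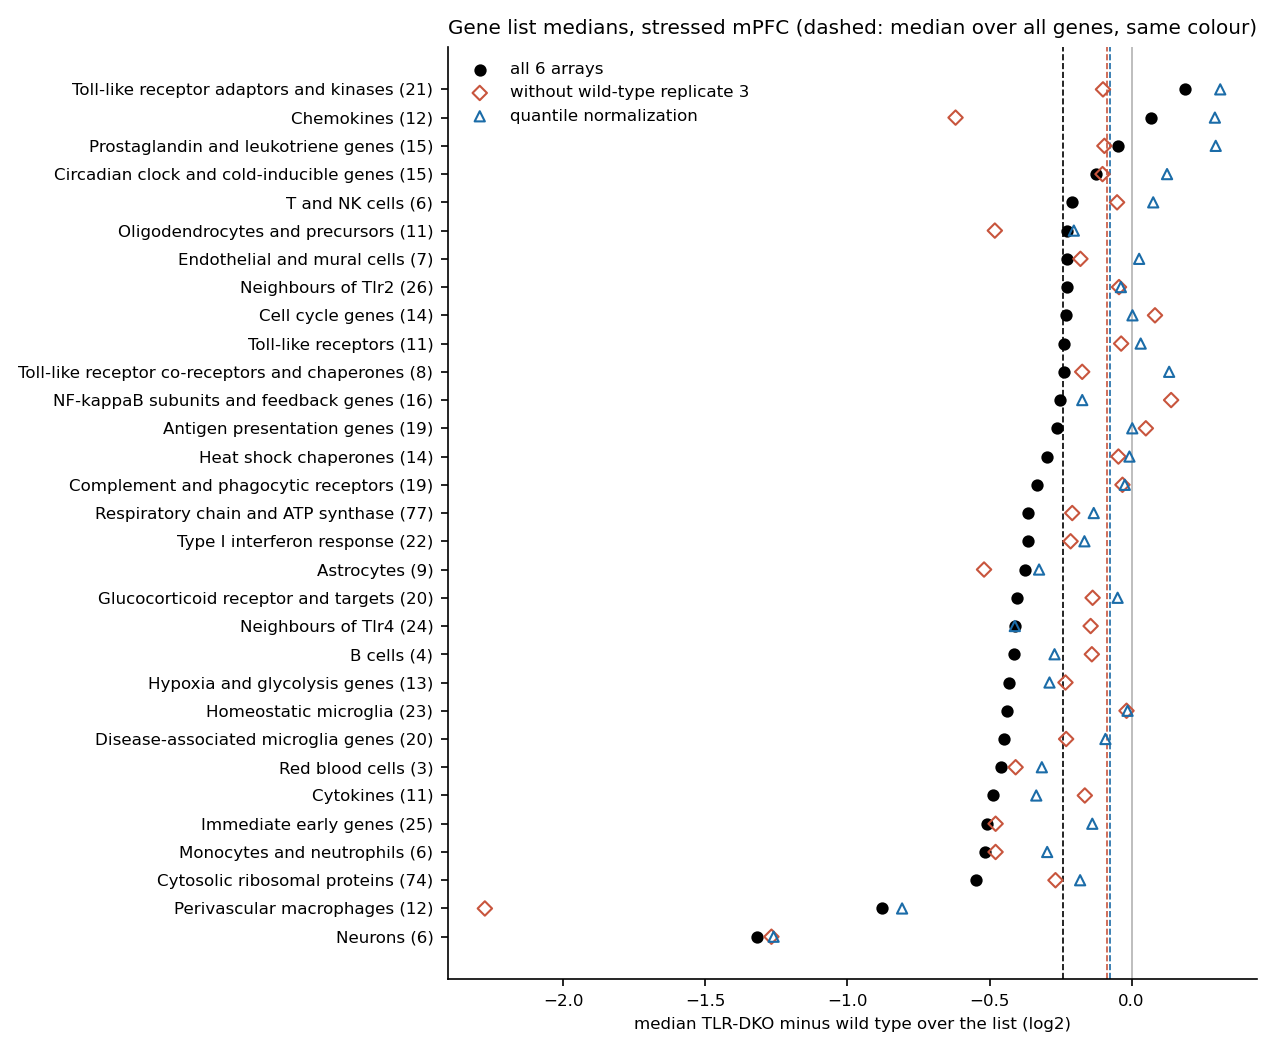
Median difference TLR-DKO minus wild type (x axis, log2) over each gene list in stressed mPFC, with the number of genes measured in brackets: all 6 arrays in black, without wild-type replicate 3 as red diamonds and after quantile normalization as blue triangles; dashed lines give the median over all genes in the same colour. Most lists sit near the line of their colour, the neuronal list is near -1.3 under these 3 (-0.61 with normexp background correction, not drawn), and the perivascular list moves from -0.88 to -2.28.

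Whether the difference between genotypes after stress itself differed from that in naive mPFC or in stressed NAc was tested by interaction terms in the same fit. For stress, 0 genes passed the threshold by limma, with 1507 (6.09%) at an unadjusted p under 0.05 and a smallest adjusted p of 0.495. For region, 0 passed, with 761 (3.08%) at an unadjusted p under 0.05 and a smallest adjusted p of 0.764. The difference between genotypes passed the threshold for 3 genes in naive mPFC, 3 in naive NAc (0.0121% each) and 2 in stressed NAc (0.00808%), and Tlr2 and NAP060823-1 were in each set. Of the 3 genes that fell in stressed mPFC, Msantd3 was the one found in no other pair of groups.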

How the data were processed

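Gene expression was measured with single-colour Agilent arrays in sorted microglia. The scanner files, deposited per sample, give linear intensity per spot; the file headers name Agilent Feature Extraction 11.0.1.1, whose processed signal was used. The authors' deposited matrix holds log2 values that correlate with these at 1 within each array and differ in scaling by at most 0.0619, with column medians from -2.90 to -2.21. Its centring is not stated.

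Processed signals were put on the log2 scale and the 75th percentile of the array was subtracted. Control spots and outlier flags were dropped (108 probes), spots of a probe were averaged, and 0 spots were saturated. Of 29744 probes with a RefSeq accession, 27980 were named through RefSeq (GRCm38.p6). The headers name mm9, so the RefSeq table gave names, gene order and promoters only. Probes entered the test if 3 arrays of at least 1 of 8 groups were well above background, and the probe with the highest mean stood for its gene, which left 24738 genes (14369 named through RefSeq).

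All 26 arrays were fitted as 8 group means with limma 3.58.1 in R 4.3.3 (lmFit and eBayes, two-sided, Benjamini-Hochberg, threshold 0.05). The fit was tested on simulated data. Named genes were Tlr2, Tlr4 and Cx3cr1, genes past the threshold, the 12 RefSeq-named genes with the smallest p in each direction, the Toll-like receptor pathway, and the members with the smallest p or best known in other lists. The members and lists were chosen with earlier results of these data known. Lists are described by counts and medians. Alternatives covered background correction, normalization, filters, probes, variance, array weights, slide, replicate numbers, samples in the fit and each array left out. The slides hold several groups each; slide 1 held replicates 1 and 2 and slide 2 replicate 3 of both stressed mPFC groups.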

Additional observations from a re-analysis of the deposited data

How the results depend on the processing

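Tlr2, NAP060823-1 and Msantd3 made up the 3 genes past the threshold, and the count depended on how the spread was estimated. It was 0 when only the 6 arrays were fitted (1070 genes at an unadjusted p under 0.05) and 0 with the replicate block in that fit (1251), where even Tlr2 had an adjusted p of 0.230 and 0.870. It was 1 (NAP060823-1) among genes well above background on all 26 arrays, a filter that removes genes absent from a group, 5 with normexp on gMedianSignal and quantile normalization, and 13 with array weights; the cause was not tested. Leaving out each array in turn gave 3 to 7 genes, 7 without wild-type R-SDS replicate 2, and the same 3 genes were kept each time. Without wild-type R-SDS replicate 3 and TLR-DKO naive mPFC replicate 1, both outlying, Msantd3 missed the threshold (adjusted p = 0.0534). The interaction with stress gave 1 gene, Fpgt, with array weights and 0 to 1 when an array was left out (1 without wild-type R-SDS replicate 3), and that with region 0 throughout. Same-numbered arrays had correlations of deviations from their group means of 0.0505, -0.0543 and 0.0801, and only replicate 3 was its own best match. With 3 arrays a group, these values cannot settle whether replicate numbers pair the samples. With the replicate block within region in the fit of 26 arrays, 4 genes passed.

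Among the named genes recomputed under every alternative, none of those whose sign turned was past the threshold. Cd14 was 0.0297 and 0.22 with normexp on gMedianSignal (75th percentile, quantile), 0.22 with quantile normalization, 0.0679 with median centring and 0.36 with array weights. Tlr7 was 0.10, 0.0686 and 0.0115 with normexp and quantile, quantile, and array weights, and Irak2 0.0413 and 0.0567 with the first pair of these. Quantile normalization gave 0.00338 for Cx3cr1 and 0.14 for Myd88. Array weights gave 0.13 for Tlr12, -0.76 for Ly96 and -0.18 for Traf6. Without those outlying arrays the values were -0.0366 (Tlr4), 0.0566 (Cx3cr1), 0.0860 (Tlr7), 0.34 (Cd14), -0.12 (Tlr6), 0.17 (Tlr12), -0.25 (Ly96) and -0.22 (Traf6). With each array left out in turn, the ranges were -0.0594 to 0.53 (Tlr4), -0.74 to 0.0566 (Cx3cr1), -0.42 to 0.0860 (Tlr7), -0.53 to 0.34 (Cd14), -1.59 to 1.00 (Myd88), -0.25 to 0.40 (Nfkbia), -1.21 to 0.11 (Tnf), -1.0 to 0.0267 (Tsc22d3), -0.17 to 0.59 (Tlr1), -1.35 to 0.81 (Tlr3), -0.30 to 0.27 (Tlr5), -0.30 to 1.26 (Tlr6), -1.25 to 0.17 (Tlr12), -0.47 to 0.54 (Ly96) and -0.22 to 2.06 (Traf6). With 1 slide alone, a value with no test, signs turned also for Irak1 (-0.31), Ticam1 (-0.62), Atf3 (0.29), Syn1 (0.78) and Map2 (0.62), among others. The cause of these turns was not tested. Normexp on gMeanSignal was not run, and gMedianSignal was chosen in its place after seeing the data. Dim probes limit low genes: a gene below background has a bound only, and wild-type replicate 3 is the dimmest of the 6 arrays.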

Other observations

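The circadian clock and cold-inducible genes gave 15 measured members, 0 past the threshold, with 5 above and 10 below 0 (median -0.12; 0.13 after quantile normalization). Cirbp, the cold-inducible RNA-binding protein gene, read 2.24, 2.54 and 3.24 in stressed wild-type and 1.57, 1.86 and 0.35 in stressed TLR-DKO mPFC microglia, without overlap. Its difference of -1.41 ± 0.40 (adjusted p = 0.671; -1.13 without wild-type replicate 3) stood beside 0.90, -0.37 and 0.58 in naive mPFC, naive NAc and stressed NAc. Rora, a nuclear receptor of the clock, differed by -2.11 ± 1.03, and by -0.78 without wild-type replicate 3. Hlf, a clock output factor, differed by 3.76 ± 1.95, with the TLR-DKO arrays spread from -1.28 to 4.06 (2.39 without wild-type replicate 3).

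Of 15 prostaglandin and leukotriene genes, 7 lay above and 8 below 0 (median -0.05; -0.10 without wild-type replicate 3; 0.30 after quantile normalization) and 0 passed the threshold. Alox5ap, which helps to start leukotriene synthesis, read 5.49, 5.12 and 6.07 against 4.81, 4.57 and 4.43 (-0.96 ± 0.39, no overlap; -0.70 without wild-type replicate 3). Hpgds, a prostaglandin D synthase, differed by 1.23 ± 0.60 (0.82 without that array) and Ptgs2, the inducible cyclooxygenase, by -1.05 ± 0.89. The 13 hypoxia and glycolysis genes had 1 above and 12 below 0 (median -0.43; -0.23 without wild-type replicate 3; -0.29 after quantile normalization). Ldha, the lactate dehydrogenase gene, differed by -1.02 ± 0.56, and by -0.23 without that array, while Hilpda, a lipid droplet gene, differed by -2.19 ± 1.41 (-1.41 without it). The 14 cell cycle genes, Mki67 among them, had 6 above and 8 below 0 (median -0.23; 0.08 without wild-type replicate 3).

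Markers of monocytes and neutrophils (6 measured, median -0.52), T and NK cells (6, -0.21), B cells (4, -0.42), oligodendrocytes and precursors (11, -0.23), endothelial and mural cells (7, -0.23) and red blood cells (3, -0.46) had no member past the threshold. Without wild-type replicate 3 the medians were -0.05 for T and NK cells, -0.14 for B cells and -0.48 for oligodendrocytes and precursors. Well above background on all 3 wild-type and no TLR-DKO array of the stressed mPFC were 32 genes (0.129% of those tested), 17 of them named. On all 3 TLR-DKO and no wild-type array there were 91 genes (0.368%), 57 of them named. The wild-type side holds the dimmest of the 6 arrays, replicate 3, and its part in these counts was not tested.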
